A study of Mus musculus with 10 samples.

Results

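The LIF receptor and Stat3 pathway is taken here as 7 genes: Lifr, Il6st, Jak1, Stat3, Socs3, Pim1 and Pim3. Open chromatin around them was read from 10 ATAC-seq peak lists, ATAC-seq being an assay in which a transposase inserts sequencing adapters into accessible DNA. The members were chosen by name and position: every region touching the span from 30 kb before to 30 kb after each gene (mm10, a mouse genome build) was kept. The 10 lists merge into 208827 regions, of which 128 lie in these 7 windows. The study followed mouse embryonic fibroblasts (MEF) on their way to induced pluripotency, with 2 libraries at each of 5 stages and a single batch name for all 10. MEF, DAY3, DAY6 and DAY9 share the C57BL/6 x 129 background and the genotype OKSM Col1a1/M2rtTA ROSA26, a cassette of the reprogramming factors in Col1a1 and the doxycycline-dependent activator in Rosa26. The MEF were kept in MEF medium without doxycycline and were not sorted. DAY3, DAY6 and DAY9 are 3, 6 and 9 days in ESC medium with 1 µg/ml doxycycline and 50 µg/ml ascorbic acid, unsorted at DAY3 and sorted for SSEA+ cells at DAY6 and DAY9. The ESC are the embryonic stem cell line V6.5, also C57BL/6 x 129, without the cassette, unsorted, in ESC medium on irradiated feeder cells. ESC medium holds 1000 U/ml LIF. Every stage but MEF was therefore in LIF, every stage but ESC carried the cassette, and the sort coincides with DAY6 and DAY9, so none of these can be told apart from stage.

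LIF is the cytokine that keeps mouse embryonic stem cells self-renewing in culture. It binds the LIF receptor, encoded by Lifr, which pairs with the shared signalling subunit gp130, encoded by Il6st. The kinase Jak1 then phosphorylates the transcription factor Stat3, which enters the nucleus. Socs3, a target of Stat3, is a feedback inhibitor of the receptor complex, and the serine/threonine kinases Pim1 and Pim3 are further targets. Fibroblasts use the same receptor subunits and Stat3 for cytokines of the IL-6 family, so an open promoter at these genes is no mark of pluripotency by itself.

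The lists hold 45497 (DAY3) to 88980 (ESC) peaks, and the background pileup recovered from the authors' fold and p-values, a measure of relative depth, lay between 2.327 (DAY6 replicate 2) and 8.322 (MEF replicate 2). DAY3 lists are the shortest, so absence of a peak weighs least there. At pileups of 100 to 200 the difference between replicates relative to counting noise, 1 for chance alone, was 1.33 at DAY3 and 1.42 at DAY9, against 11.4 in MEF, 3.61 at DAY6 and 9.47 in ESC. The DAY3 pair and the DAY9 pair were each counted as 1 sample. Among pluripotency markers with an annotated start, 1 of 6 had a peak within 1 kb of it in both MEF libraries and 6 of 6 in both ESC libraries. Of the fibroblast markers, 6 of 6 had one in both MEF libraries and 4 of 6 in both ESC libraries. Postn had none in ESC, and Twist2 had a peak in 1 of the 2 ESC libraries. For epithelial markers the counts were 0 of 2 in both MEF and 2 of 2 in both ESC libraries, for endothelial markers (Kdr and Tek) likewise 0 of 2 and 2 of 2, and for blood markers 0 of 2 at every stage. The share of feeder cells in the ESC libraries was not tested.

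The starts of all 7 genes were open throughout: each had a peak over an annotated start in all 10 libraries. Over all 17492 protein-coding genes with an annotated start, 52.9% had a peak within 1 kb of one in all 10. The annotated span of Lifr begins farther upstream than the Lifr starts used here. Lifr and Pim1 each have a further annotated start, and these differed. The bases before them are shown because the pairs contrast in CpG content. Each line gives the 250 bases before a start in transcription direction, from RefSeq (GRCm38.p6, the same coordinates as mm10), with every CG dinucleotide in capitals. The bases before the Lifr starts are chr15:7129322-7129571 and chr15:7140292-7140541, and those before the Pim1 starts are chr17:29490535-29490784 and chr17:29492835-29493084, all on the plus strand.
Lifr upstream start: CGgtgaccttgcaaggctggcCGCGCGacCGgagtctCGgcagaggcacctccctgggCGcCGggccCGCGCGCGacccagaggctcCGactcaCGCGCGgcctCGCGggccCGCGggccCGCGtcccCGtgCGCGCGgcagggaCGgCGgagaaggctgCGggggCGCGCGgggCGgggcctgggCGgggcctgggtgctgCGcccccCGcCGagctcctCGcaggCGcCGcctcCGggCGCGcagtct
Lifr downstream start: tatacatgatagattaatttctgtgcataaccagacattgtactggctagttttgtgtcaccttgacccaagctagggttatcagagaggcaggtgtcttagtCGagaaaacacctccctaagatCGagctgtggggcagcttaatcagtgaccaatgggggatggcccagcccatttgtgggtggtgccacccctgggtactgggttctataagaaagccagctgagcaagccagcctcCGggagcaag
Pim1 upstream start: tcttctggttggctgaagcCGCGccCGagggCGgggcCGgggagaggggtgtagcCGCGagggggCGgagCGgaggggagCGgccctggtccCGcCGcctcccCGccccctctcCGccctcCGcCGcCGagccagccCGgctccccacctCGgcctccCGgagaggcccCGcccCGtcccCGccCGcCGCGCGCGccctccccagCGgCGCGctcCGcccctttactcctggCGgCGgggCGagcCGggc
Pim1 downstream start: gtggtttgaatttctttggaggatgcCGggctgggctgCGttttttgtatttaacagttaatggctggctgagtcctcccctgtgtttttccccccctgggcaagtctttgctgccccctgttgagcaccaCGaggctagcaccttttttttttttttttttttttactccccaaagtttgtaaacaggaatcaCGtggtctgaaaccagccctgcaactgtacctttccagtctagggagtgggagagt

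Before the Lifr upstream start 43 CG dinucleotides were counted, an observed over expected ratio of 1.01, and its region (chr15:7128916-7130281) had a peak in 10 of 10 libraries. The Lifr downstream start had 3 CG dinucleotides, a ratio of 0.19, and no peak over it in any library. Pim1 gave the same contrast in sequence, with 36 CG dinucleotides (ratio 0.86) before the upstream and 4 (ratio 0.28) before the downstream start. The upstream Pim1 start had a peak in 10 and the downstream start in 6 libraries, namely DAY3 replicate 1, both DAY6, both DAY9 and ESC replicate 1. The other single starts had ratios of 0.96 (Il6st), 0.85 (Jak1), 0.56 (Stat3), 0.82 (Socs3) and 1.08 (Pim3). Among all 32851 annotated starts the median ratio was 0.37. A peak lay over the start in all 10 libraries for 74.6% of the 11153 starts with a ratio of at least 0.6 and for 10.4% of the 21698 below it, so open CpG-rich starts are common and not particular to these genes.

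The Socs3 promoter is shown for its STAT motif, the palindrome TTCNNNGAA, searched on both strands in the 250 bases before each start. It was found once among the 9 starts of the 7 genes, at position -154 from the Socs3 start, as TTCTTAGAA. Of all 32851 starts 7.02% hold the motif. The capitals mark it in chr11:117969367-117969616, minus strand, 5′ to 3′.
Socs3 start: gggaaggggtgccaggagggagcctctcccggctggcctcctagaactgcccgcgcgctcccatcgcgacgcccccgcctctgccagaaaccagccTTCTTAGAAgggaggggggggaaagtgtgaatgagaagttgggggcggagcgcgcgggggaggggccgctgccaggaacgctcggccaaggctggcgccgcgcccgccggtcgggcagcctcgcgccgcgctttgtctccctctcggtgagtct
A match is a description of the letters, and binding was not measured here.

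Fold enrichment is the authors' linear ratio of a peak to its local background. It is the value of a peak within its own list, and values are set side by side here as a description, since depth differs between lists. In what follows folds are given for replicate 1 and then replicate 2 of a stage. At the Stat3 start (chr11:100938730-100940123) the fold was 13.7 and 9.93 in MEF, 9.07 and 10.1 at DAY3, 15.3 and 15.0 at DAY6, 17.3 and 16.9 at DAY9, and 13.5 and 12.9 in ESC. The DAY9 replicate 1 value was the highest at any of the 7 starts, and the Stat3 peak stood among the top 0.692% and 0.788% of the DAY9 lists by score. At the Lifr start it was 7.75 and 5.47 in MEF, 6.68 and 7.42 at DAY3, 9.37 and 8.59 at DAY6, 10.8 and 11.9 at DAY9, and 8.97 and 5.29 in ESC. The Lifr start stood lower, nowhere higher than the top 10.4% of a list. At the Socs3 start (chr11:117968727-117970255) the fold was 9.44 and 7.42 in MEF, 6.24 and 7.49 at DAY3, 9.87 and 12.4 at DAY6, 12.5 and 10.7 at DAY9, and 9.08 and 6.78 in ESC. At all 3 of these starts the MEF and ESC values overlap, and both DAY9 values lie above every MEF and ESC value. The same DAY9 order held at the Il6st and Pim3 starts and not at Jak1 or Pim1. How many of all starts show this order was not counted, so it is not a result about these genes. Among the peaks with the highest folds of each list, the median fold was 13.5 and 13.4 at DAY9. It was 12.9 and 8.19 in MEF and 13.6 and 10.9 in ESC. At the Jak1 start the fold was 14.7 in both DAY9 libraries, against 15.7 in MEF replicate 1 and in ESC replicate 1. At the Pim1 start it was 8.41 and 7.55 at DAY9, against 8.78 in MEF replicate 1.

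**Figure D1:**
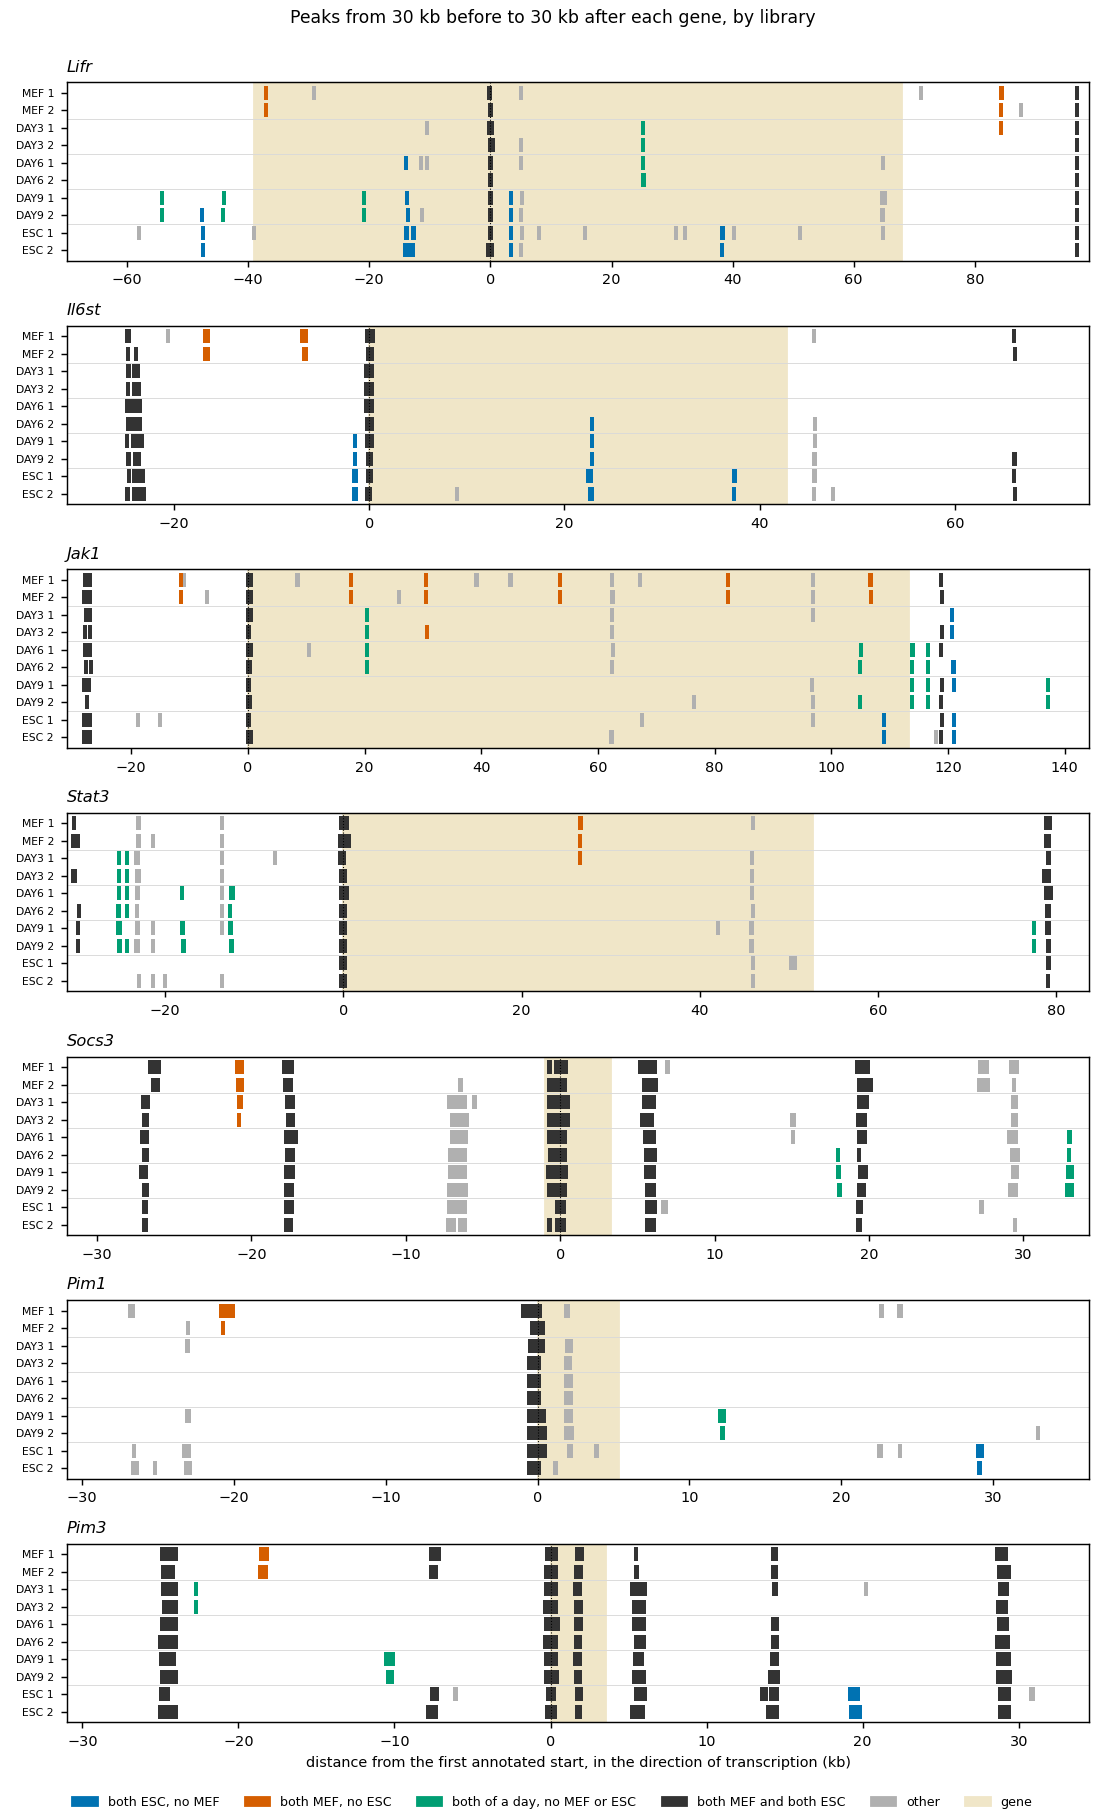
Peaks of the 10 libraries (rows) in the 7 windows, by distance from the first annotated start in transcription direction (kb). Bars are peaks drawn at a minimum width, colours give the class of their region and the shaded span is the gene. A black bar stands at distance 0 in every library of every gene, and coloured bars lie away from it.

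The regions open in ESC were then set against those open in MEF. A region was called gained if both ESC and no MEF library had a peak on it, lost in the opposite case, shared if all 4 had one, and transient if no MEF or ESC library but both from at least one of the days had one. With 2 libraries against 2, no two-sided exact permutation test can give a p-value below 0.33, so these are calls without a test. Of the 128 regions, 11 were gained (8.59%), against 15.9% of all regions and 14.7% of those within 30 kb of any protein-coding gene. Lost regions numbered 14 (10.9%), against 11.1% and 10.8%. Transient regions numbered 19 (14.8%), against 9.61% and 9.84%. Shared regions numbered 24 (18.8%), against 9.2% and 11.5%. The exact (Clopper-Pearson) 95% interval of the member share, for counting error only, was 4.4% to 14.9% for gained, 6.1% to 17.7% for lost and 9.2% to 22.2% for transient regions. It holds both background shares of lost and of transient regions, and for gained regions it holds 14.7% and not 15.9%. The interval counts regions of the same window as independent. No interval was computed for shared regions, which include a start region of each of the 7 genes. The other 60 regions fell in no class, 39 of them with a peak in 1 library only.

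The gained count moved with list length and with the ESC libraries, as did the share over all regions. With every list cut to its 45497 highest-scoring peaks it was 5 (3.91%, atlas 7.97%), beside 15 lost (11.7%, atlas 7.98%) and 14 transient regions (10.9%, atlas 8.62%). It was 17 without ESC replicate 1 (13.3%, atlas 27.5%) and 27 without ESC replicate 2 (21.1%, atlas 26.3%). Without MEF replicate 2 the lost count was 22 (17.2%, atlas 20.1%). With the top 50% of each list 5 regions were transient (3.91%), below the 5.52% of the atlas, so the order of the transient shares turned there.

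**Figure D2:**
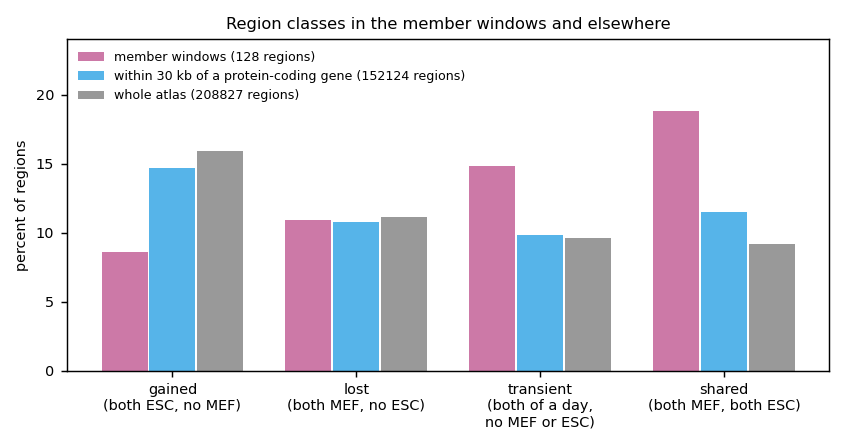
Share of regions in each class (percent, y axis) for the member windows, for regions within 30 kb of a protein-coding gene and for the whole atlas. Gained regions are the smaller share in the member windows (8.59% against 15.9% of the atlas), lost regions are alike (10.9% and 11.1%), and transient (14.8% and 9.61%) and shared regions are the larger share with the full lists.

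The windows differ in length, from 63.5 kb (Pim3) to 173.3 kb (Jak1), and 15.9% of all regions of the atlas were gained. Gained in the Lifr window were 4 of 27 regions, in the Il6st window 3 of 12 and in the Jak1 window 2 of 31. Pim1 had 1 of 13 and Pim3 had 1 of 14. Stat3 (17 regions) and Socs3 (14 regions) had none. These small counts depend on single libraries: without ESC replicate 2 they were 13 at Lifr, 5 at Jak1, 2 at Pim1 and 3 at Pim3, and without ESC replicate 1 they were 5 at Il6st and 3 at Pim1. With lists of equal length they were 3 at Lifr, 1 at Il6st and 0 at Jak1. More regions were gained than lost at Lifr and Il6st, fewer at Jak1, Stat3 and Socs3, and equal numbers at Pim1 and Pim3. Over all 21887 protein-coding genes, 45.8% had more gained than lost and 23.8% more lost than gained. Over the 15 alternatives Lifr had more gained in 14 and equal numbers in 1 (without MEF replicate 2), Il6st more gained in 12 and equal numbers in 3, and Jak1 more lost in all 15. Stat3 and Socs3 each had more lost in 13 and equal numbers in 2. Pim1 had more gained in 7 and equal numbers in 8, and Pim3 equal numbers in 12.

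Lifr, the LIF receptor gene, spans chr15:7090610-7197489 on the plus strand, and its window has 27 regions. The gained region with the highest score, chr15:7081742-7082395, lies between genes, 47.5 kb upstream of the upstream start. Its fold was 9.47 and 10.4 in ESC and 3.22 in DAY9 replicate 2, and no other library had a peak there. The ESC peaks were among the top 14.6% and 9.6% of their lists. Inside the gene, upstream of the same start, chr15:7115182-7117277 had a fold of 3.25 in DAY6 replicate 1, 3.12 and 3.34 at DAY9, and 5.35 and 4.8 in ESC. At chr15:7132708-7133130, 3.3 kb downstream of the start, the fold was 2.22 and 2.19 at DAY9 and 5.42 and 7.83 in ESC. The fourth, chr15:7167492-7168308, had peaks in ESC alone, with folds of 6.44 and 4.34. At the first 3 of these, the ESC folds lay above the DAY9 folds. Exon positions were not used here, so within the gene means within its annotated span.

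Lost at Lifr was chr15:7092184-7092792, within the gene near the 5′ end of its annotated span, with a fold of 11.1 and 6.76 in MEF and no peak in any later library. A further lost region, chr15:7213675-7214262, lies in the neighbouring gene Egflam. It had a fold of 4.53 and 2.68 in MEF and 3.17 in DAY3 replicate 1. At the 5′ end of the annotated span of Lifr, chr15:7090266-7090777 had a peak in ESC replicate 1 alone, with a fold of 5.13. It lies 39.1 kb before the start called upstream here, and this 5′ end is not among the starts used. That library also held most of the Lifr regions seen in 1 library. It had 17 peaks in the window where ESC replicate 2 had 7. Over the 7 windows 15 regions (11.7%) were listed in ESC replicate 1 alone, against 7.5% of the atlas.

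Il6st, the gp130 subunit, spans chr13:112464070-112506860 on the plus strand, with 12 regions in its window. Gained with the highest score was chr13:112462288-112462888, 1.5 kb upstream of the start, with a fold of 2.41 and 2.45 at DAY9 and 7.05 and 5.7 in ESC. The promoter region beside it, chr13:112463497-112464618, had a fold of 10.9 and 9.16 in MEF and 9.89 and 8.23 in ESC. The other gained regions lie within the gene. At chr13:112486288-112487049 the fold was 3.91 in DAY6 replicate 2, 3.6 and 2.99 at DAY9, and 5.13 and 4.65 in ESC. At chr13:112501205-112501778 it was 3.57 and 3.1 in ESC, with no peak elsewhere. Both lost regions lie upstream: chr13:112447014-112447746, 16.7 kb from the start, had a fold of 10.2 and 4.49 in MEF, and chr13:112457003-112457818, 6.7 kb from it, had 4.3 and 2.79. Neither had a peak at any later stage. Il6st thus had its lost regions farther upstream and its gained regions nearer the start and inside the gene. It was the one member without a transient region. The region farthest upstream, chr13:112439051-112441177, was shared, with a peak in all 10 libraries, and joins neighbouring peaks. MEF replicate 1 lacked the peak nearer the start, and MEF replicate 2 had a fold of 3.22 at it. The fold of this nearer peak was 9.48 and 9.89 at DAY3, 12.7 and 12.4 at DAY9, and 9.44 and 8.01 in ESC. At the farther peak the fold was 6.2 and 3.43 in MEF and 2.78 and 3.0 at DAY3. It was 2.13 and 3.28 at DAY9 and 3.12 and 2.5 in ESC. At DAY6 a single peak spanned both, with a fold of 11.7 and 13.8.

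**Figure D3:**
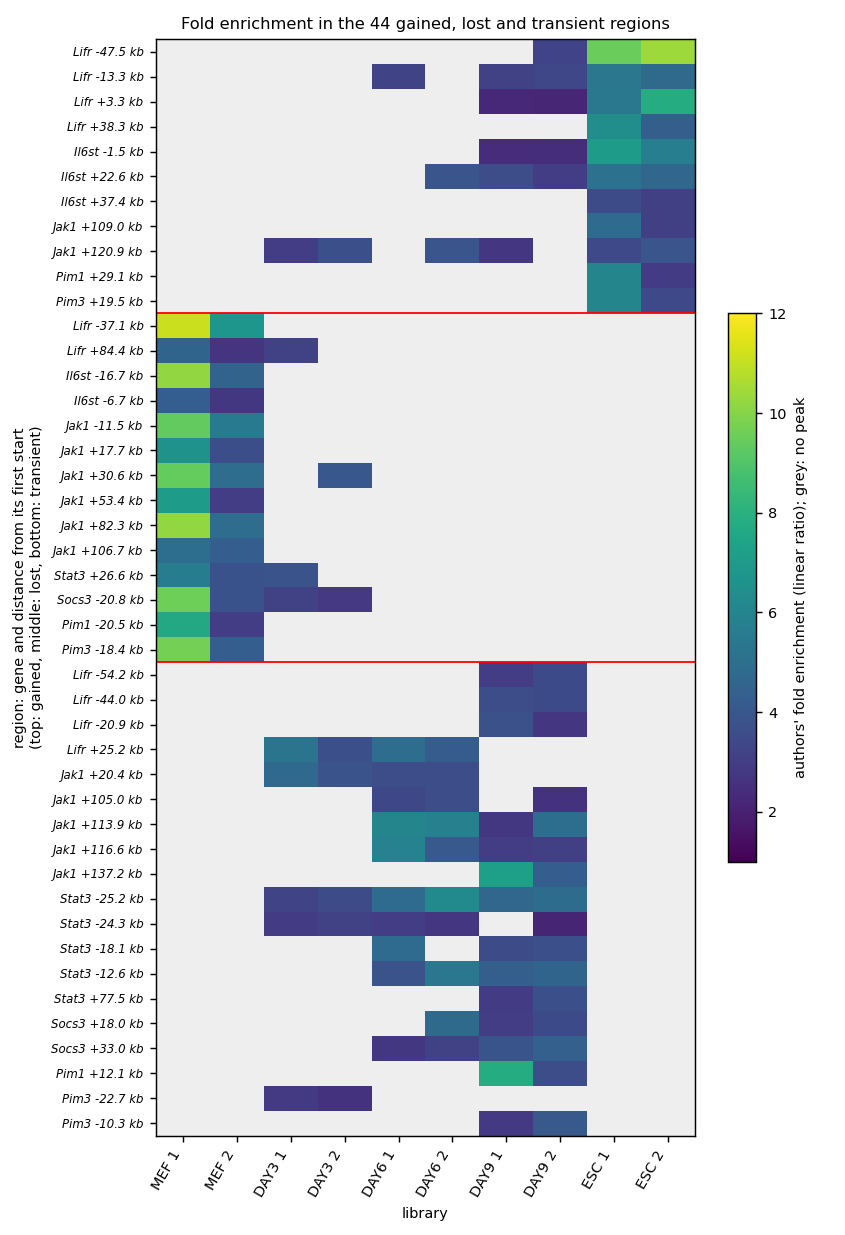
Authors' fold enrichment (colour, linear ratio) in the 11 gained, 14 lost and 19 transient regions (rows, by gene and distance from its first start) in each library (columns), grey where no peak was listed. The DAY3 columns are grey in 10 of the 11 gained regions, and in 10 of the 14 lost regions every column after MEF is grey.

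Jak1, the receptor-bound tyrosine kinase, spans chr4:101151974-101265282 on the minus strand. At 173.3 kb its window is the longest of the 7, and it has the most regions, 31. It also held the most lost regions, 6 of these 31, against 11.1% of the atlas. Of the 6 lost regions 5 lie within the gene and 1 lies upstream. The one with the highest score, chr4:101234280-101235060, 30.6 kb downstream of the start, had a fold of 9.39 and 4.93 in MEF and 3.99 in DAY3 replicate 2. At chr4:101182625-101183164 the fold was 10.2 and 4.93 in MEF, and upstream at chr4:101276387-101277082 it was 9.35 and 5.58, with no later peak at either. The remaining 3 had folds from 3.0 to 7.02 in MEF and no later peak. A further MEF region inside Jak1, chosen after its values were seen, was not called lost because of 1 weak ESC peak. At chr4:101202350-101203208 the fold was 15.9 and 11.0 in MEF, 8.41 and 11.1 at DAY3, and 3.37 and 6.31 at DAY6. It had no peak at DAY9 or in ESC replicate 1 and a fold of 2.94 in ESC replicate 2. It was the region with the highest MEF fold in the Jak1 window.

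The gained regions at Jak1 lie at the far end of the gene. At chr4:101155892-101156465, 109.0 kb downstream of the start, the fold was 4.84 and 3.1 in ESC alone. The other, chr4:101143944-101144742, lies in the neighbouring gene Raver2. It was the one gained region with a peak in both DAY3 libraries (fold 3.01 and 3.67), and it had folds of 3.91 in DAY6 replicate 2, 2.72 in DAY9 replicate 1, and 3.41 and 3.88 in ESC. The DAY3 peaks do not overlap the peak of ESC replicate 1 and overlap that of ESC replicate 2 only at its edge. Of the 5 transient regions of the window, 3 also lie in Raver2.

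Stat3, the transcription factor, spans chr11:100886806-100939594 on the minus strand and shares its window with Stat5a, Stat5b and Cavin1. Of the 17 regions none was gained. The one lost region, chr11:100912697-100913214 within Stat3, had a fold of 5.66 and 3.75 in MEF and 3.81 in DAY3 replicate 1. The window had 5 transient regions, 3 of them in Cavin1, a gene of caveolae that lies upstream of Stat3. The one with the highest score, chr11:100964409-100965031, had a fold of 3.27 and 3.51 at DAY3, 4.85 and 6.22 at DAY6, and 4.61 and 4.87 at DAY9. At chr11:100951726-100952480, between the genes and 12.6 kb upstream of the Stat3 start, it was 3.82 and 5.34 at DAY6 and 4.32 and 4.54 at DAY9. No transient region lay within Stat3 itself. Inside Stat3, chr11:100893375-100894040 had a peak in every library but MEF replicate 2.

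Socs3, the feedback inhibitor, spans chr11:117966079-117970336 on the minus strand, and 5 of its 14 regions had a peak in all 10 libraries. None was gained. At chr11:117963043-117964348, 5.7 kb downstream of the start, the fold was 6.6 and 6.27 in MEF, 9.69 and 12.5 at DAY6, and 8.49 and 8.41 in ESC. At chr11:117949101-117950254, 19.7 kb downstream, it was 12.8 and 6.06 in MEF and 3.35 and 3.1 in ESC. Upstream, chr11:117975293-117976738 had a peak in every library but MEF replicate 1, with a fold of 2.87 in MEF replicate 2, 6.8 and 6.48 at DAY6, and 3.81 and 3.44 in ESC. The lost region, chr11:117989825-117990459, lies in the neighbour Pgs1, with a fold of 9.59 and 3.75 in MEF and 3.15 and 2.81 at DAY3. Transient regions numbered 2, both downstream, and the one with the highest score, chr11:117936100-117936678, had folds of 2.8 and 3.18 at DAY6 and 3.85 and 4.36 at DAY9.

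Pim1 and Pim3, kinases of one family, had 1 gained and 1 lost region each. At Pim1 (chr17:29490785-29496111, plus strand) the gained region chr17:29519673-29520160 lies in the neighbour Tmem217, with a fold of 6.02 and 2.94 in ESC alone. The lost region chr17:29469799-29470849, 20.5 kb upstream, had 7.63 and 3.0 in MEF alone. The region over the downstream Pim1 start, chr17:29492510-29493172, had a fold of 2.78 in MEF replicate 1, 3.94 and 4.2 at DAY3, 4.85 and 4.56 at DAY6, 6.65 and 5.81 at DAY9, and 2.69 in ESC replicate 1, with no peak in the other MEF and ESC libraries. Its DAY9 folds lie above those of every other stage, and in 2 of the 8 libraries with a peak on the region (MEF replicate 1 and DAY3 replicate 2) the peak did not reach the start itself. Pim3 (chr15:88862194-88865726, plus strand) had 7 shared regions of 14, the most of any member. Its gained region chr15:88881255-88882143, 19.5 kb downstream, had a fold of 6.02 and 3.41 in ESC alone, and its lost region chr15:88843426-88844159 had 9.68 and 4.29 in MEF alone. At chr15:88854220-88855156, 7.5 kb upstream, peaks were listed in both MEF (fold 3.54 and 2.9) and both ESC libraries (3.31 and 4.65) and at no stage between.

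Timing followed from the first stage at which both libraries had a peak. At pileups of 100 to 200 replicates differed by 1.33 (DAY3) and 1.42 (DAY9) relative to counting noise, against 3.61 at DAY6. Background pileup was 3.453 and 2.327 at DAY6 and 7.327 and 7.372 at DAY9. Whether noise or depth made a peak in both libraries a stricter demand at DAY6, for gained or transient regions, was not tested. The atlas shares carry the same rule. Among the 11 gained regions the first such stage was DAY3 for 1 (9.09%, atlas 8.69%), DAY6 for 0 (atlas 14.7%), DAY9 for 4 (36.4%, atlas 15.7%) and ESC for 6 (54.5%, atlas 60.9%). The DAY3 case is the region in Raver2, where the DAY3 peaks did not overlap the peak of ESC replicate 1. All 4 with both peaks first at DAY9 belong to the receptor genes, 2 to Lifr and 2 to Il6st. These genes held 4 and 3 of the 11 gained regions. At each gene 1 of the 2 also had a peak in 1 DAY6 library. The 5 regions with both peaks before ESC are 45.5% of the gained regions, against 39.1% of all 33273 gained regions of the atlas. With a peak in at least 1 library counted, 1 of the 11 was present at DAY3 (9.09%, atlas 13.9%), 3 at DAY6 (27.3%, atlas 35.4%) and 6 at DAY9 (54.5%, atlas 47.7%). With lists of equal length 0% of the 5 gained regions had peaks in both libraries of an earlier stage (atlas 39.3%). The share was 29.4% without ESC replicate 1 (atlas 28.3%) and 22.2% without ESC replicate 2 (atlas 30.6%), so its order against the atlas is not fixed. At the 4 regions with both peaks first at DAY9 the DAY9 folds ran from 2.19 to 3.6, low in those lists. Of the lost regions 10 of 14 (71.4%) were absent at DAY3, near the 79.4% of the 23260 in the atlas, and the other 4 (28.6%, atlas 9.37%) were first absent at DAY6. Those 4 lie at Lifr, Jak1, Stat3 and Socs3, 1 each. No lost region had a peak at DAY6 or DAY9. DAY3 has the fewest peaks of all stages, and with lists of equal length 46.7% of 15 were absent at DAY3 (atlas 67.9%).

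Of the 19 transient regions, 14 had peaks in both DAY9 libraries (73.7%, atlas 80.2%), 9 in both DAY6 (47.4%, atlas 44.0%) and 5 in both DAY3 libraries (26.3%, atlas 34.9%). DAY9 alone held 7 of them (36.8%), against 23.1% of the 20061 transient regions of the atlas. The strongest at Jak1, chr4:101127771-101128313 in Raver2, had a fold of 7.21 and 4.3 at DAY9 alone. At Pim1, chr17:29502671-29503166 had 7.81 and 3.58 at DAY9 alone. The transient Lifr region with the highest score, chr15:7154463-7155076, had a fold of 5.23 and 3.67 at DAY3 and 4.94 and 4.21 at DAY6 and no DAY9 peak. It was 1 of 3 without a peak in either DAY9 library.

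Each gene's peak number was also compared between the stages. In the Jak1 window it was 16 and 13 in MEF, 7 and 8 at DAY3, 10 and 9 at DAY6, 8 and 9 at DAY9, and 9 and 7 in ESC. The MEF mean was 14.5 ± 2.12 (SD, n = 2) and the ESC mean 8.0 ± 1.41 (SD, n = 2), and the groups do not overlap, although the ESC lists are longer. In the Il6st window it was 7 and 6 in MEF, 3 and 3 at DAY3, 2 and 4 at DAY6, 6 and 7 at DAY9, and 8 and 10 in ESC. ESC lay above MEF there without overlap. In the Lifr window it was 7 and 5 in MEF, 5 and 4 at DAY3, 8 and 3 at DAY6, 9 and 11 at DAY9, and 17 and 7 in ESC. The Lifr ESC libraries lie far apart and their lower value equals the higher MEF value.

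The Stat3 window had its highest number at DAY9, with 12 and 11, and its lowest in ESC, with 4 and 7, against 7 in each MEF library. Socs3 was the most even, with 10 in each MEF library, 9 in each library from DAY3 to DAY9, and 8 and 9 in ESC. Pim1 had 6 and 3 in MEF, 2 to 4 at the days between, and 8 and 6 in ESC. Pim3 had 8 in each MEF library, 6 to 8 at the days between, and 11 and 8 in ESC. Both ESC values lay above both MEF values for 1 of the 7 genes (Il6st), against 35.5% of all genes, and below them for 2 (Jak1 and Socs3), against 11.6%.

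For 21012 genes the spread of peak numbers between stages, as a share of their sum of squares over 8 samples, was tested by exact permutation. No member passed: the Benjamini-Hochberg adjusted p over all genes lay between 0.353 (Il6st and Stat3, unadjusted exact p = 0.0595 and 0.0643) and 0.715 (Lifr, 0.579), with 0.388 for Jak1. None of the 21012 genes passed either (0.0%), while 2765 (13.2%) had an unadjusted p under 0.05. At the smallest p of 0.00238, 1001 genes would have to reach it before any passed, so the test says little of these genes.

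**Figure D4:**
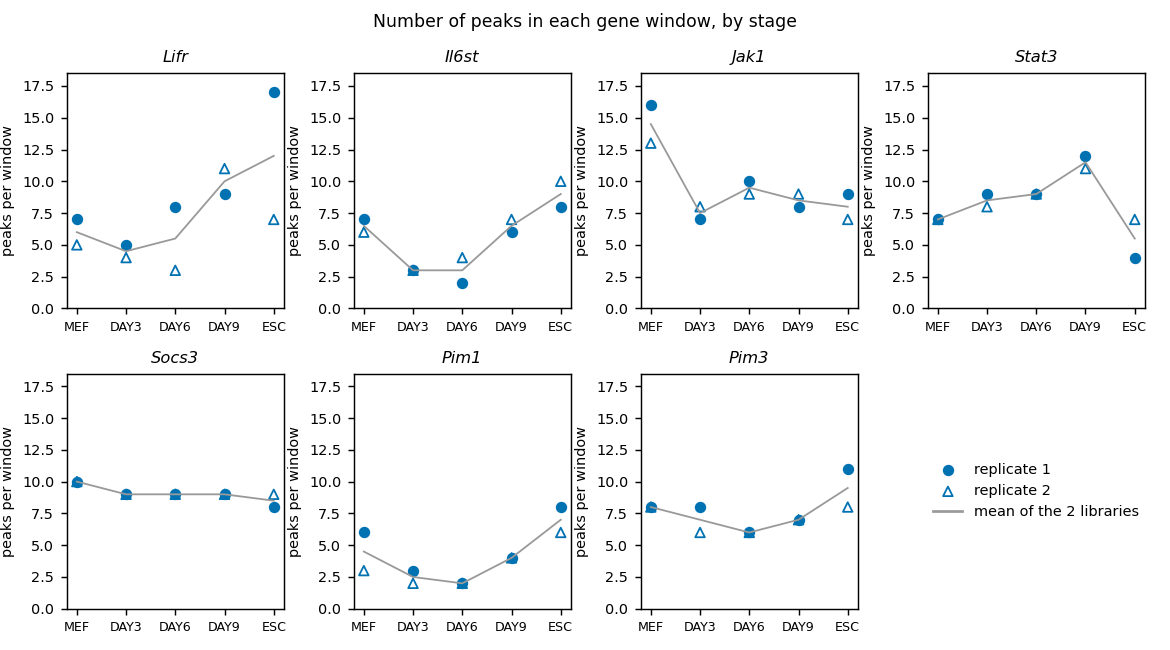
Number of peaks (y axis) in each gene window at the 5 stages, with filled circles for replicate 1, open triangles for replicate 2 and a line through the stage means. Jak1 is highest in MEF (16 and 13), Stat3 at DAY9 (12 and 11) and Lifr in ESC replicate 1 (17).

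The genes on other chromosomes with peak numbers most like those of Lifr, by the mean absolute difference over the 8 samples, were Nol4l (1.188), Kif21b (1.25) and Azin2 (1.312). The median over all genes was 4.19. In ESC these had 17 and 9, 14 and 7, and 14 and 10 peaks.

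The rest of the pathway was read from a list of 35 genes, 29 of them with an annotated start. A peak within 1 kb of the start was listed in both MEF libraries for 22 of the 29 and in both DAY3 for 22. It was listed in both DAY6 for 25, both DAY9 for 25 and both ESC for 26. Over all 17492 genes with a start the counts were 10030, 9964, 10649, 11158 and 11066 in that order, so they also rose from MEF to ESC. In all 10 libraries it was listed for 18 (62.1%), against 52.9% of all genes. The start was gained in ESC against MEF for 5 of the 29, against 762 of 17492 (4.36%) over all genes. It was lost for none, against 191 of 17492 (1.09%). The 5 are Cntfr, the receptor subunit for ciliary neurotrophic factor, the phosphatase Ptpn6, the factor Stat4, the kinase Pim2 and Bcl3, a cofactor of NF-kappaB. Peaks were first listed in both libraries at DAY3 for Pim2 and Bcl3, at DAY6 for Stat4, at DAY9 for Ptpn6 and in ESC for Cntfr. Within 2.5 kb of the start Ptpn6, Pim2 and Bcl3 had a peak in all 10 libraries, so these 3 calls rest on the distance used.

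Among the ligands, Lif itself had a start peak in MEF replicate 1 and both ESC libraries and in none at DAY3 to DAY9, and within 2.5 kb in all 10. Osmr, the oncostatin M receptor subunit, which also pairs with gp130, had one in every library but ESC replicate 1. The other Jak genes, Jak2, Jak3 and Tyk2, and Stat2, Stat5a, Stat5b and Stat6 had start peaks in all 10 libraries. So did Klf4, which is also a cassette gene, and reads of the shared sequence cannot be told apart in the cassette-bearing cells. In the windows of the 35 genes, 14 had more regions gained than lost and 11 the reverse, with a median of 1 gained and 1 lost region, against medians of 1 and 0 over all genes. Tfcp2l1, a Stat3 target of the pluripotency network, had the most gained regions of the list, 8, beside 2 lost, and 12 and 11 peaks in ESC against 3 and 4 in MEF. At Ptpn11, the phosphatase that links gp130 to the MAP kinases, 5 regions were transient and the window had 3 peaks in each ESC library against 7 in each MEF library. In the exact permutation test neither passed, with adjusted p of 0.341 for Tfcp2l1 and 0.317 for Ptpn11. These 2 genes were chosen after their values were seen.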

How the data were processed

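ATAC-seq libraries of 10 mouse cell samples were read from the authors' deposited peak lists, one per library, with no pooled list. Per the submitters' processing notes, Bowtie2 2.3.2, MACS2 2.1.1 and deepTools 2.3.6 were used with build mm10; settings, duplicate handling and later filters are not given in the sources used here. The deposited columns are a score, a fold enrichment (a linear ratio) and −log10 p- and q-values for each peak, with no read total. No deposited −log10 p-value was under 5.

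Peaks that overlapped or touched were merged, and a region counted as open in a library whose peaks shared at least 1 bp with it. Whole summit pileups recovered from fold and −log10 p (tolerance 0.01, −log10 p up to 300) gave relative depth and replicate noise. Genes and starts are from RefSeq GRCm38.p6; all 7 members matched. The positions and classes of regions carry no test. Window counts were tested with an exact permutation test (420 arrangements of 8 samples) adjusted over all genes. On simulated counts, with 200 of 11670 genes raised 4-fold in ESC, 17.0% of these and 3.19% of the others had p under 0.05, so the test has little power. Nothing in the labels says which cultures the replicates of a stage came from, and the series calls them biological replicates.

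The members, lists and tests were chosen with earlier results of these data known. Named were all members and, for each class in each window, the region with the highest mean score, the regions over gene starts, and the 3 genes most like Lifr. The remaining gained regions are named to account for each of them, and any other region named by position was chosen after its values were seen. Python 3.11.15, numpy 2.4.6, pandas 2.3.3 and scipy 1.17.1 were used. Same-numbered replicates were not treated as pairs in the main test. Correlations of same-numbered deviations ran from -0.01 to 0.022 over 10 pairs of stages, which does not settle whether they share a culture.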

Additional observations from a re-analysis of the deposited data

How the results depend on the processing

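With lists of equal length the gained count was 5, with 0% of them open before ESC. With the top 50% of each list it was 6 (4.69%, atlas 8.08%), transient regions numbered 5 (3.91%, atlas 5.52%, the reverse order of the full lists), and 16.7% of gained regions were open before ESC (atlas 35.3%). These lists hold fewer peaks. With windows of 10 kb, which hold 78 regions, 8 were lost (10.3%) and 9 transient (11.5%), against 11.1% and 9.61% of the atlas. Without 1 library, gained regions ranged from 11 to 27, lost from 14 to 22 and transient from 19 to 23. The share of gained regions open before ESC ranged from 22.2% to 54.5% and that of lost regions without a DAY3 peak from 55.6% to 85.7%. Of the 44 gained, lost and transient regions, 24 kept their class with lists of equal length, 13 with the top 50%, and 42 when a peak had to cover 50% of the region, an alternative chosen after seeing the data because the planned wording equalled the rule used. None turned from gained to lost or back. Under that 50% rule the windows held 15 gained (11.7%, atlas 15.1%), 17 lost (13.3%, atlas 10.5%) and 20 transient regions (15.6%, atlas 10.8%). All 7 starts had peaks in all 10 libraries within 1 kb and within 2.5 kb. No member passed the window test under any alternative: with the replicate block (exact permutation, 120 arrangements of 10 libraries) 0 passed, with adjusted p from 0.227 to 0.364, and with 10 separate libraries from 0.101 to 0.397. Windows differ in length with the gene, so region counts of different genes are not per length, and peaks below the authors' calling threshold cannot be seen.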
